A study of Mus musculus with 4 samples.

Results

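The genes described here encode 2 guidance systems of ligands and receptors, the semaphorins with their plexin receptors and the ephrins with their Eph receptors. They were chosen by symbol from the platform annotation (Sema with a class number, Plxna to Plxnd, Efna or Efnb with a number, Epha or Ephb with a number). The choice gave 51 of the 22180 genes with a symbol of their own on the arrays: 20 semaphorins, 10 plexin entries, 8 ephrins and 13 Eph receptors. The plexin entries include Plxna4os1, an RNA transcribed opposite to Plxna4. The Eph receptors do not include Ephb2, which the choice did not give. The knockout cells came from mice with a Cre recombinase under the SM22α (Tagln) promoter, 2 floxed Mmp14 alleles and no functional Apoe. The control cells came from mice with the same floxed Mmp14 and null Apoe alleles but without Cre. All animals had eaten a Western diet for 3 months, and the ages are not in the labels. Vascular smooth muscle cells were grown for 5 days from collagenase-digested thoracic aorta after removal of the adventitia, and each group had 2 arrays. Apoe loss was common to both groups, so no comparison here bears on it.

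Semaphorins are secreted (class 3 in vertebrates) or membrane-bound ligands. They bind plexins, often together with neuropilins, and plexins then alter small GTPases, the actin cytoskeleton and adhesion. Ephrins stay on the cell surface, by a lipid anchor (A class) or a transmembrane segment (B class), and signal to Eph receptor tyrosine kinases on a neighbouring cell and back into their own cell. Both systems are known in vessels, where ephrin-B2 marks arteries and EphB4 veins, and ephrin-B2 is also used by smooth muscle cells and pericytes. MT1-MMP, the membrane protease that Mmp14 encodes, is known in human carcinoma cells to shed semaphorin 4D and to cleave EphA2. The arrays measured RNA and carry no value for such cleavage.

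Mmp14 had log2 values of 8.27 and 8.19 in the knockout arrays, against 8.71 and 9.05 in the control arrays, a difference of -0.65 (SE 0.17; limma, adjusted p = 0.319). Probes of that row may lie outside the deleted exons, which limits it as a check of the labels. Pearson's r across all rows was 0.982 between the knockout arrays, 0.981 between the control arrays and 0.974 to 0.98 across groups. Markers of other cell types were read in all arrays. The 12 macrophage markers summed to 6806 and 7991 linear units in the knockout arrays, against 4668 and 4539 in the control arrays. The 12 endothelial markers summed to 246 and 280 in the knockout arrays, against 1364 and 679 in the control arrays. That sum was led by the markers of highest value, in the control arrays Emcn (log2 9.29 and 8.13) and Cdh5 (8.72 and 6.97). Of 10 endothelial markers tested, 3 had a mean difference above 0. The 9 smooth muscle markers summed to 5100 and 3343 in the knockout arrays, against 4882 and 3448 in the control arrays. In a bulk culture, fewer cells of a type and less RNA per cell cannot be told apart. No row on this scale reads 0, and no background level was measured.

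In the knockout arrays the class 3 semaphorins Sema3c, Sema3d, Sema3e and Sema3f, the ephrins Efna5 and Efnb2 and the receptors Epha2 and Epha4 read lower than in both control arrays. Plxnc1 and Sema4d read higher than in both. Smaller differences without overlap were those of Ephb3 (0.30) and Sema5b (0.18), both higher, and of Plxna2 (-0.24), lower. None of these differences passed the test over all genes. Of the 51 members, 35 had a mean at or above the level used for testing (3.02, the median over all rows), and 0 of them were called at a limma adjusted p under 0.05, as were 0% of the 12550 genes tested. The smallest adjusted p among the members was 0.155, that of Efnb2. At an unadjusted p under 0.05 there were 8 members (22.9%, against 11.7% of all genes tested): 6 were lower (17.1%, against 6.78%) and 2 were higher (5.71%, against 4.89%). The groups did not overlap for 13 members (37.1%, against 44.3% of all genes tested), namely for 9 that were lower (25.7%, against 27.5%) and for 4 that were higher (11.4%, against 16.7%), all shares below those of the whole table. The median difference over the 35 members was -0.02, beside -0.05 over all genes tested. With 2 arrays against 2, an exact two-sided permutation test cannot give a p below 0.333. Per the design text the mice came as 2 pairs, but the labels do not tie arrays to pairs, so the fit was unpaired. The spread behind each p-value is that of mouse, culture and array together.

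**Figure D1:**
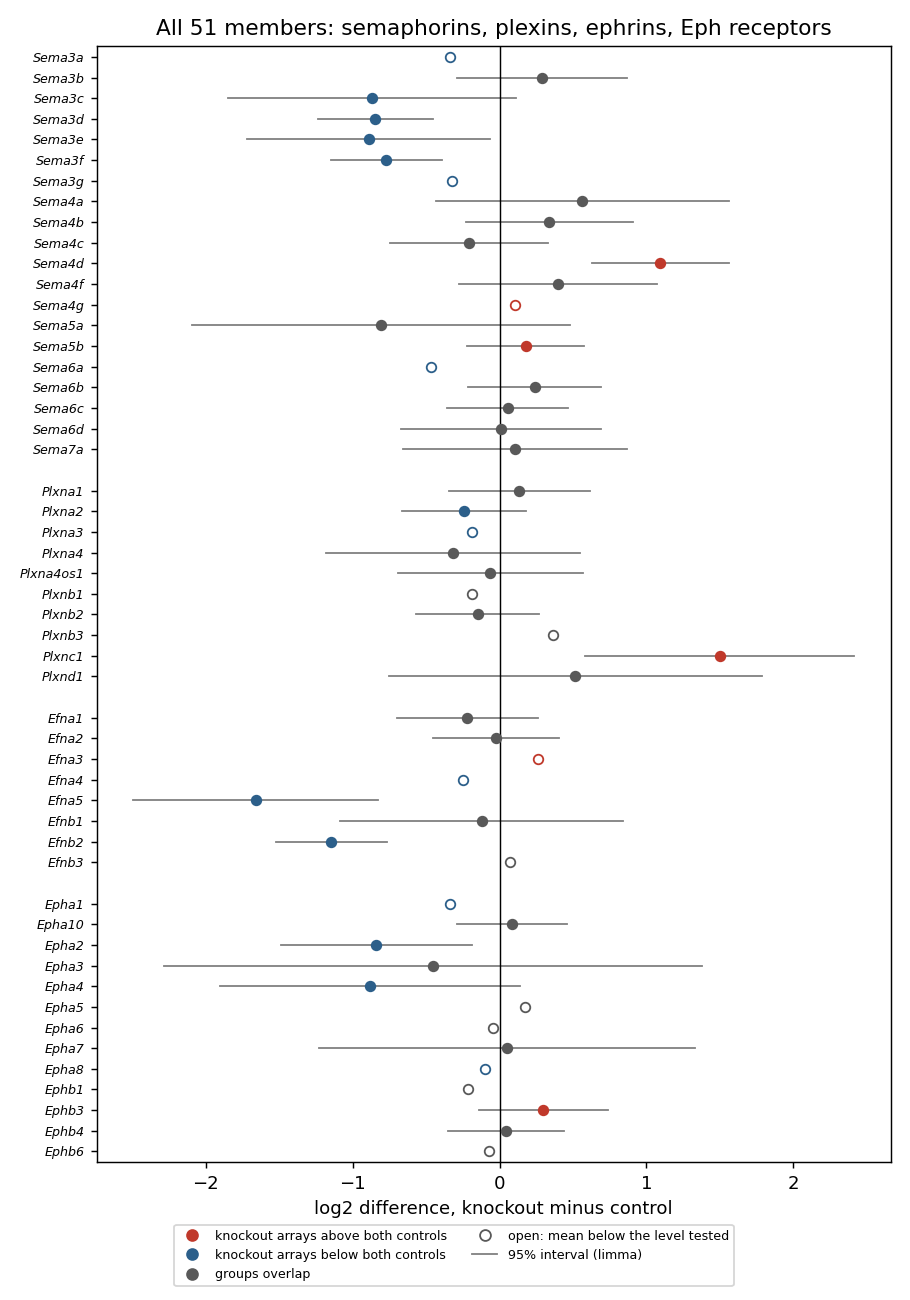
Log2 difference, knockout minus control (x axis), for each of the 51 members (rows, by family); filled points were tested and carry the 95% interval of the limma fit, open points had a mean below 3.02. Efna5 at -1.66 lies farthest left and Plxnc1 at 1.50 farthest right.

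**Figure D2:**
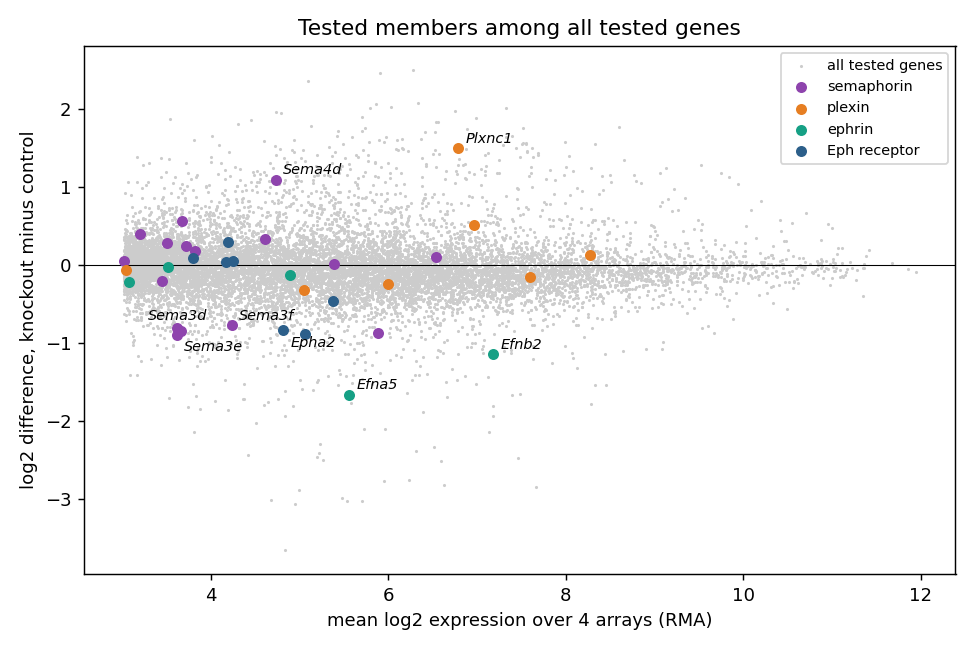
Log2 difference, knockout minus control (y axis), against the mean log2 value over the 4 arrays (x axis) for the 12550 genes tested (grey) and the 35 tested members (coloured by family). The 8 labelled members had an unadjusted p under 0.05, and genes outside these families reach from -3.65 to 2.50.

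The DNA before the start site is shown for the members at an unadjusted p under 0.05 that have exactly 1 entry in the RefSeq promoter table (GRCm38.p6), 6 of 8, since these are the genes whose RNA differed most relative to its spread. The other two are Sema3f and Sema4d. Each line gives 250 bases, 5′ to 3′ on the gene's own strand, ending at the base before the start site. The windows are chr10:94944846-94945095 (minus strand) for Plxnc1, chr17:62881318-62881567 (minus strand) for Efna5, chr8:8661243-8661492 (minus strand) for Efnb2, chr4:141300971-141301220 (plus strand) for Epha2, chr5:12382916-12383165 (plus strand) for Sema3d and chr5:14025026-14025275 (plus strand) for Sema3e. Capitals mark matches, on either strand, to 5 motifs: GAGGAA (an ETS core), GGAATG (bound by TEAD factors), TGANTCA (AP-1), GGGCGG (the GC box) and TATAAA (the TATA box).
Plxnc1: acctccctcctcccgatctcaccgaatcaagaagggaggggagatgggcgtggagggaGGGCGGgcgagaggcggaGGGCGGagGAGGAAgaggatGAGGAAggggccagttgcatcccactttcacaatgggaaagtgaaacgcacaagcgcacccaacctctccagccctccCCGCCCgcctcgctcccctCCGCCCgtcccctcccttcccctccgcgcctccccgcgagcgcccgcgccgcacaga
Efna5: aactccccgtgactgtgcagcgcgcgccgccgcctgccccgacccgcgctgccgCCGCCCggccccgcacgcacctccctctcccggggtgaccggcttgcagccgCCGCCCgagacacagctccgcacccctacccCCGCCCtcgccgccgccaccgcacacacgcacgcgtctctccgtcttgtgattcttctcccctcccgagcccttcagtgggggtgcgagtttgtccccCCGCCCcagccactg
Efnb2: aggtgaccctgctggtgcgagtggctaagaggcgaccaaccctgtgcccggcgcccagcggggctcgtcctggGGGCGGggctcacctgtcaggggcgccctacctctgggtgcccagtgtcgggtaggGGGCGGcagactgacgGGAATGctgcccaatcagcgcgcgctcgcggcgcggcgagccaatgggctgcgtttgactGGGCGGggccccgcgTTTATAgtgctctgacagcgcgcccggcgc
Epha2: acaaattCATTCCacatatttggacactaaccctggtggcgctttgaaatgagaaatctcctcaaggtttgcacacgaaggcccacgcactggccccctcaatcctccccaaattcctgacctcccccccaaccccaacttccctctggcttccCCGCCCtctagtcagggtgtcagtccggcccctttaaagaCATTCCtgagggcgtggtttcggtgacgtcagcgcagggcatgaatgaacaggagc
Sema3d: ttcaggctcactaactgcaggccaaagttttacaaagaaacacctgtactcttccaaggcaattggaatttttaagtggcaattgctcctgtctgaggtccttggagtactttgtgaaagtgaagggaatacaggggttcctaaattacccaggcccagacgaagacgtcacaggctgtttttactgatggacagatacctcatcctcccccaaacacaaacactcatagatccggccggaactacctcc
Sema3e: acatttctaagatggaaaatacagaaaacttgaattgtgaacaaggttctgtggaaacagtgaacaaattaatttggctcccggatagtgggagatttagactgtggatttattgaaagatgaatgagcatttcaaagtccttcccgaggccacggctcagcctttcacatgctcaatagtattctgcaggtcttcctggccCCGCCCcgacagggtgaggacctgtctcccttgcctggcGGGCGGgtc

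Among all 32851 windows of the table, 23.3% held GAGGAA, 12.6% held GGAATG, 6.7% held TGANTCA, 32.7% held GGGCGG and 12.4% held TATAAA. Plxnc1, which was higher in the knockout arrays, held 2 matches to GAGGAA and 4 to GGGCGG. Among the members that were lower, Efnb2 held 1 match to GGAATG, 3 to GGGCGG and 1 to TATAAA. The TATAAA match lay at -30 to -25 from the start site on the opposite strand, where the gene's own strand reads TTTATA. Epha2 held 2 matches to GGAATG and 1 to GGGCGG, Efna5 held 4 to GGGCGG and Sema3e held 2 to GGGCGG. No match to the 5 motifs was in the Sema3d window. The windows of Efna5 and Efnb2 had 74.8% and 72.0% G and C, that of Plxnc1 68.8%, and those of Sema3d and Sema3e 46.8% and 48.0%, beside a median of 52.4% over all windows. A match is a run of letters and not a measured binding site.

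Among the ligands, the secreted class 3 semaphorins read lower in the knockout arrays without overlap for 4 of the 5 members tested, where 27.5% of all genes tested did. Sema3a and Sema3g, below the level tested, also read lower without overlap. Sema3d had log2 values of 3.30 and 3.18 in the knockout arrays, against 3.99 and 4.18 in the control arrays. The difference was -0.85 (SE 0.15, 95% interval -1.24 to -0.46; limma, adjusted p = 0.213), or 1.80-fold lower. Sema3f, a ligand that acts through neuropilin-2 and repels endothelial and tumour cells, had values of 3.84 and 3.87 in the knockout arrays, against 4.53 and 4.72 in the control arrays. It differed by -0.77 (SE 0.14, 95% interval -1.15 to -0.39; limma, adjusted p = 0.23). For Sema3d and Sema3f the arrays of a group lay closer to one another than to any array of the other group.

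Sema3e, which binds plexin-D1 without a neuropilin and restrains vessel sprouting in the mouse embryo, had values of 3.21 and 3.14 in the knockout arrays, against 4.51 and 3.62 in the control arrays. The 2 control arrays differed from each other about as much as the group means did, and the difference of -0.89 (SE 0.32, limma adjusted p = 0.398) became -0.45 without control replicate 1. Sema3c, a ligand needed for the outflow tract of the mouse heart, had values of 4.98 and 5.92 in the knockout arrays, against 6.05 and 6.59 in the control arrays. Its difference of -0.87 (SE 0.37, limma adjusted p = 0.47) became -0.40 without knockout replicate 1, since knockout replicate 2 lay close to the lower control array. The knockout means of Sema3d (3.24) and Sema3e (3.18) were near the level tested, which is a filter and not a measured background. If background makes up part of such values, both differences can look smaller than they are, but this was not tested. Sema3a, the growth cone collapsing factor, had 2.79 and 2.63 in the knockout arrays, against 2.92 and 3.17 in the control arrays, and Sema3g differed by -0.32. Sema3b was the exception in this class, with 3.51 and 3.81 in the knockout arrays, against 3.60 and 3.14 in the control arrays, and the groups overlapped.

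Sema3d, Sema3a and Sema3e are near neighbours on chromosome 5, and Sema3c lies further along it, as the RefSeq gene table orders them. From Sema3d to Sema3c the table holds 22 protein-coding genes. Apart from predicted genes and the Speer family there are 7: the 4 semaphorins with Pclo, Cacna2d1 and Hgf. These 3 were looked up after the semaphorin values had been seen. Cacna2d1, a calcium channel subunit, also read lower, at 4.70 and 4.41 in the knockout arrays, against 5.22 and 5.43 in the control arrays (difference -0.76; limma, adjusted p = 0.273). Hgf, the hepatocyte growth factor, had overlapping groups and a difference of 0.45, and Pclo, below the level tested, overlapped as well. Sema3f lies on chromosome 9. Whether position bears on these values was not tested.

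The membrane-bound semaphorins lay on both sides of 0, and no test compared the classes. Sema4d, known as CD100 on leukocytes and a ligand of plexin-B1, had values of 5.14 and 5.42 in the knockout arrays, against 4.31 and 4.06 in the control arrays. Both knockout arrays lay above both controls, with a difference of 1.09 (SE 0.18, 95% interval 0.63 to 1.56; limma, adjusted p = 0.2), or 2.14-fold. Of the 5 class 4 members tested, 4 had a mean difference above 0, and Sema4d alone had groups without overlap. Sema4a, another immune semaphorin, read 4.49 in knockout replicate 2 and 3.43 in knockout replicate 1, against 3.53 and 3.25 in the control arrays, so only knockout replicate 2 lay above the controls behind its difference of 0.56. Sema4b differed by 0.34, Sema4f by 0.40 and Sema4c by -0.21, each with overlapping groups. Sema4g, below the level tested, differed by 0.11.

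Sema7a, a lipid-anchored semaphorin that binds plexin-C1 and integrins, had values of 6.22 and 6.97 in the knockout arrays, against 6.62 and 6.36 in the control arrays. The groups overlapped, and the difference of 0.10 had a 95% interval of -0.66 to 0.87, which does not exclude a change of either sign within those bounds. Sema5b had 3.91 and 3.93 in the knockout arrays, against 3.86 and 3.62 in the control arrays, without overlap but with a difference of only 0.18 (SE 0.15), which became 0.060 without control replicate 2. Sema5a, a semaphorin with thrombospondin repeats, differed by -0.81 (SE 0.49), and its arrays ranged from 2.82 to 3.61 in the knockouts and from 3.40 to 4.64 in the controls. Sema6b, Sema6c and Sema6d differed by 0.24, 0.05 and 0.01, all with overlap. Sema6a, below the level tested, had 2.76 and 2.53 in the knockout arrays, against 3.14 and 3.08 in the control arrays.

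**Figure D3:**
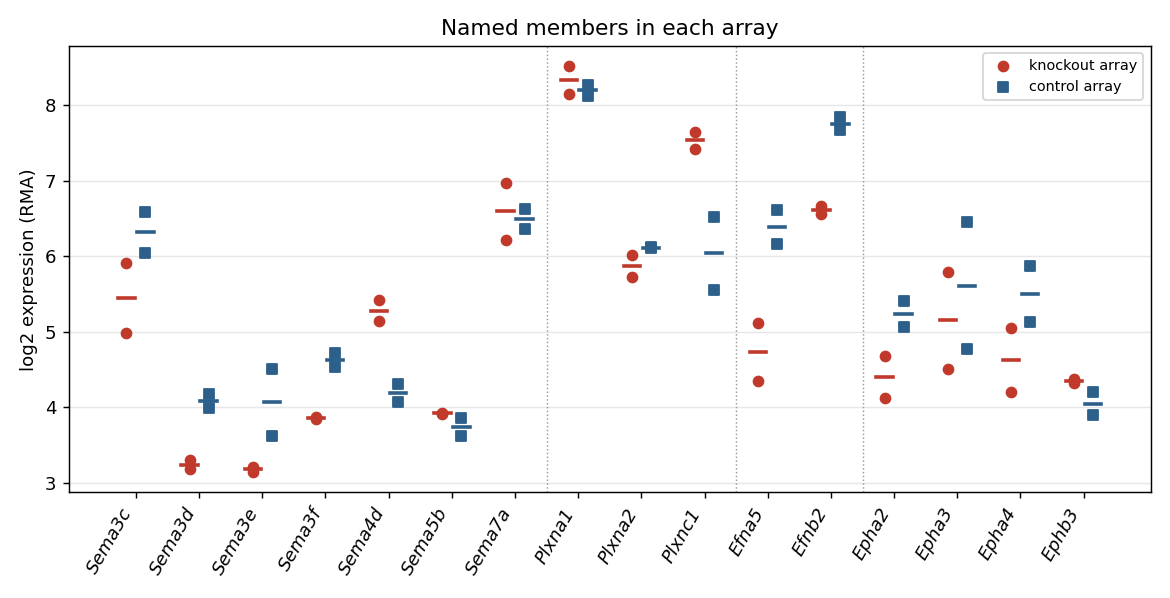
Log2 expression (y axis) of the 16 named members (x axis, by family) in each knockout array (red circles) and control array (blue squares), with short lines at group means. Plxnc1 and Sema4d lie higher in both knockout arrays, and Efna5, Efnb2, Sema3d and Sema3f lower in both.

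Among the plexins, Plxnc1 gave the largest difference. It encodes the receptor of Sema7a, which also binds viral semaphorins and is known from myeloid cells. Plxnc1 had values of 7.43 and 7.65 in the knockout arrays, against 6.53 and 5.55 in the control arrays. The group means were 7.54 ± 0.16 in the knockouts and 6.04 ± 0.69 in the controls (SD, n = 2 each), a difference of 1.50 (SE 0.35, 95% interval 0.58 to 2.42; limma, adjusted p = 0.28), or 2.83-fold. Leaving out single arrays gave 1.01 to 1.99, the lower value without control replicate 2. All 12 macrophage markers were higher in both knockout arrays than in both control arrays, 10 of them at an unadjusted p under 0.05, with a median difference of 1.40. Ptprc differed by 1.75, Adgre1 by 1.74 and Csf1r by 1.15. The part of the macrophage markers in the Plxnc1 and Sema4d values was not tested.

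The other plexins gave smaller or overlapping differences. Plxnd1, the receptor of Sema3e, had 6.71 and 7.74 in the knockout arrays, against 7.22 and 6.20 in the control arrays, and the spread within each group exceeded the difference of 0.52 (SE 0.49). Plxna2 had 5.73 and 6.02 in the knockout arrays, against 6.11 and 6.12 in the control arrays, a difference of -0.24 (SE 0.16) that became -0.10 without knockout replicate 1. Plxna1, a receptor for class 3 and class 6 semaphorins, had 8.15 and 8.52 in the knockout arrays, against 8.13 and 8.28 in the control arrays (difference 0.13, 95% interval -0.35 to 0.61). A second row of Plxna1 differed by 0.18. Plxnb2 differed by -0.15 (95% interval -0.57 to 0.27) and Plxna4 by -0.32 (95% interval -1.18 to 0.54). Plxna4os1 differed by -0.06, and since the strand of its probes is not in the sources used here, its signal and that of Plxna4 may not be separate. Plxna3, Plxnb1, the receptor of Sema4d, and Plxnb3 lay below the level tested, at differences of -0.19, -0.19 and 0.37.

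Efna5 and Efnb2 read lower in both knockout arrays than in both control arrays. Efna5, a lipid-anchored ligand of several EphA receptors, had values of 4.34 and 5.11 in the knockout arrays, against 6.16 and 6.62 in the control arrays. The difference of -1.66 (SE 0.32, 95% interval -2.50 to -0.83; limma, adjusted p = 0.233) corresponded to a 3.16-fold lower level and lay farthest from 0 among the 51 members. Leaving out single arrays gave -2.05 to -1.27. Efnb2, the transmembrane ligand of EphB4, had values of 6.57 and 6.66 in the knockout arrays, against 7.84 and 7.68 in the control arrays. The group means were 6.61 ± 0.07 in the knockouts and 7.76 ± 0.12 in the controls (SD, n = 2 each), a difference of -1.14 (SE 0.15, 95% interval -1.52 to -0.76; limma, adjusted p = 0.155), or 2.21-fold lower. Leaving out single arrays moved it only between -1.23 and -1.06.

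The other three tested ephrins had overlapping groups. Efna1, the ligand of EphA2, differed by -0.22 (95% interval -0.70 to 0.26), Efna2 by -0.02 and Efnb1 by -0.12. Efnb1 had 5.21 and 4.47 in the knockout arrays, against 5.34 and 4.58 in the control arrays, so its replicates lay further apart than its groups. Efna3, Efna4 and Efnb3 lay below the level tested. Efna4 had 2.49 and 2.49 in the knockout arrays, against 2.71 and 2.78 in the control arrays, and Efna3 had 3.05 and 2.73 in the knockout arrays, against 2.62 and 2.63 in the control arrays. Neither overlapped between groups, with Efna4 lower (-0.25) and Efna3 higher (0.26), and Efnb3 differed by 0.07 with overlap. All 5 tested ephrins had a mean difference below 0, as had 58.3% of all genes tested.

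Among the receptors, Epha2, known from epithelia, endothelium and smooth muscle, had values of 4.12 and 4.68 in the knockout arrays, against 5.41 and 5.07 in the control arrays. The groups did not overlap, with a difference of -0.84 (SE 0.25, 95% interval -1.49 to -0.19; limma, adjusted p = 0.354), or 1.79-fold lower. Epha4, which binds ephrins of both classes, had 5.05 and 4.20 in the knockout arrays, against 5.88 and 5.13 in the control arrays. Its knockout replicate 1 lay just below the lower control array, and the difference of -0.88 (SE 0.39, limma adjusted p = 0.481) became -0.46 without knockout replicate 2.

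Epha3, a receptor of ephrin-A5, had 5.80 and 4.51 in the knockout arrays, against 4.77 and 6.45 in the control arrays. Its groups overlapped, and the difference of -0.45 (SE 0.70) turned to 0.39 without control replicate 2. Epha7 differed by 0.05 (95% interval -1.23 to 1.33), with control arrays at 4.94 and 3.51. Epha10, a member without kinase activity, differed by 0.09 (95% interval -0.29 to 0.46). Ephb4, the receptor of ephrin-B2, had 4.30 and 4.10 in the knockout arrays, against 4.11 and 4.21 in the control arrays, a difference of 0.04 (95% interval -0.35 to 0.44). Ephb3 had 4.37 and 4.32 in the knockout arrays, against 3.89 and 4.21 in the control arrays, a difference of 0.30 (SE 0.17; limma, adjusted p = 0.55) that became 0.14 without control replicate 1. The remaining 6 receptors, Epha1, Epha5, Epha6, Epha8, Ephb1 and Ephb6, lay below the level tested, with differences from -0.33 to 0.18.

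Endothelial cells are a known source of Efnb2 and Epha2, and endothelial markers differed between the same groups. Of 12 endothelial markers on the arrays, 10 were tested, 7 of these read lower in both knockout arrays than in both controls and 5 were lower at an unadjusted p under 0.05. Pecam1 differed by -2.49 and Cdh5 by -2.51, while Vwf differed by 0.29 and Flt1 by 0.10, both with overlap. Kdr (0.32) read higher in both knockout arrays than in both controls. Cldn5 and Tek lay below the level tested. The arterial markers gave a median difference of 0.03 over 4 tested genes. Sox17 (-0.03) and Gja5 (0.08) overlapped between groups, while Hey1 (0.26) read higher and Gja4 (-0.50) lower without overlap. Dll4 (-0.40, lower without overlap) and Bmx (-0.86, with overlap) lay below the level tested. Of the fibroblast markers, Cd34 (-2.40) and Dpt (-1.51) read lower without overlap, while Pdgfra (-0.29), Dcn (0.46) and Lum (0.74) overlapped. Pi16, below the level tested, differed by 0.04 with overlap. Of the pericyte markers tested, Cspg4 (-0.96) read lower without overlap, while Rgs5 (0.71), Abcc9 (0.38) and Mcam (0.28) overlapped. Of the lymphatic markers tested, Flt4 (-0.80) read lower without overlap and Pdpn (0.12) overlapped. The 5 tested Schwann and neural markers all overlapped between groups. Of the 9 smooth muscle markers, 7 overlapped between groups, among them Acta2 (-0.05), Tagln (-0.01), Cnn1 (0.39) and Lmod1 (0.35). Smtn, smoothelin, read lower without overlap (-0.55, unadjusted p = 0.0170 in limma; adjusted p = 0.335), as did Myocd (-0.14). The part of these cells in the ephrin, Eph and class 3 semaphorin values was not tested.

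The partners and effectors of the semaphorins and plexins went both ways. Of 43 genes listed, 38 were tested, 17 with a mean difference above 0 and 21 below, and 0 passed the limma test over all genes. At an unadjusted p under 0.05, 5 were higher (13.2%) and 4 lower (10.5%), beside 4.89% and 6.78% of all genes tested. The higher ones were Ptprc, Trem2, Tyrobp, Fes and Nrp2. Nrp2, the neuropilin that carries Sema3c and Sema3f signals, had 7.57 and 7.90 in the knockout arrays, against 6.71 and 6.22 in the control arrays, a difference of 1.27 (SE 0.23; limma, adjusted p = 0.222). Nrp1, the neuropilin of Sema3a, had 7.73 and 7.57 in the knockout arrays, against 7.91 and 7.29 in the control arrays, a difference of 0.05 with overlap. Trem2 and Tyrobp, a myeloid receptor and its adaptor that join plexin-A1 in mouse dendritic cells and osteoclasts, differed by 1.57 and 0.71. Fes, a tyrosine kinase downstream of plexin-A1, differed by 0.64. Ptprc, Tyrobp and Trem2 are themselves myeloid genes, and Ptprc and Tyrobp are also on the macrophage list. The partner list was chosen with earlier results of these data known, so its shares are no test of the partners as a set.

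The lower ones were Rnd1, Dpysl3, Farp1 and Rras2. Rnd1, a small GTPase that binds plexin tails, had 4.50 and 4.46 in the knockout arrays, against 5.82 and 6.08 in the control arrays, a difference of -1.47 (SE 0.16; limma, adjusted p = 0.144). Dpysl3, a collapsin response mediator protein, had 6.95 and 6.93 in the knockout arrays, against 7.70 and 7.75 in the control arrays, a difference of -0.78 (SE 0.13; limma, adjusted p = 0.202). Its relative Dpysl2, which mediates Sema3a signals in neurons, differed by -0.02 with overlap. Farp1, an exchange factor with a FERM domain, differed by -0.82 and Rras2, a Ras family GTPase, by -0.81. The cytoskeletal effectors Rhoa (0.04), Cfl1 (-0.03) and Limk2 (-0.04) had overlapping groups.

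The partners and effectors of the Eph receptors and ephrins were also split. Of 42 genes listed, 34 were tested, 18 with a mean difference above 0 and 16 below, and 0 passed the limma test over all genes. At an unadjusted p under 0.05, 3 were higher (8.82%, against 4.89% of all genes tested) and 4 lower (11.8%, against 6.78%). This list too was chosen with earlier results of these data known, so its shares are no test of it as a set. Vav3, an exchange factor for small GTPases downstream of Eph receptors, had 4.31 and 4.36 in the knockout arrays, against 3.35 and 2.98 in the control arrays, a difference of 1.17 (SE 0.18; limma, adjusted p = 0.185). Inpp5d, a lipid phosphatase of blood cells, differed by 1.18 and Sdcbp, a PDZ protein that binds the tails of B ephrins, by 0.50. Chn1, a Rac-inactivating protein downstream of EphA4, had 3.17 and 3.07 in the knockout arrays, against 3.62 and 4.31 in the control arrays, a difference of -0.85 (SE 0.26; limma, adjusted p = 0.359). The kinases Yes1 and Abl2 differed by -0.71 and -0.62, and Rin1, a Ras effector that takes part in EphA4 uptake, by -0.64. Adam10, the sheddase of ephrin-A5 in complex with Eph receptors, had 7.95 and 8.93 in the knockout arrays, against 8.29 and 7.95 in the control arrays, and its groups overlapped.

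**Figure D4:**
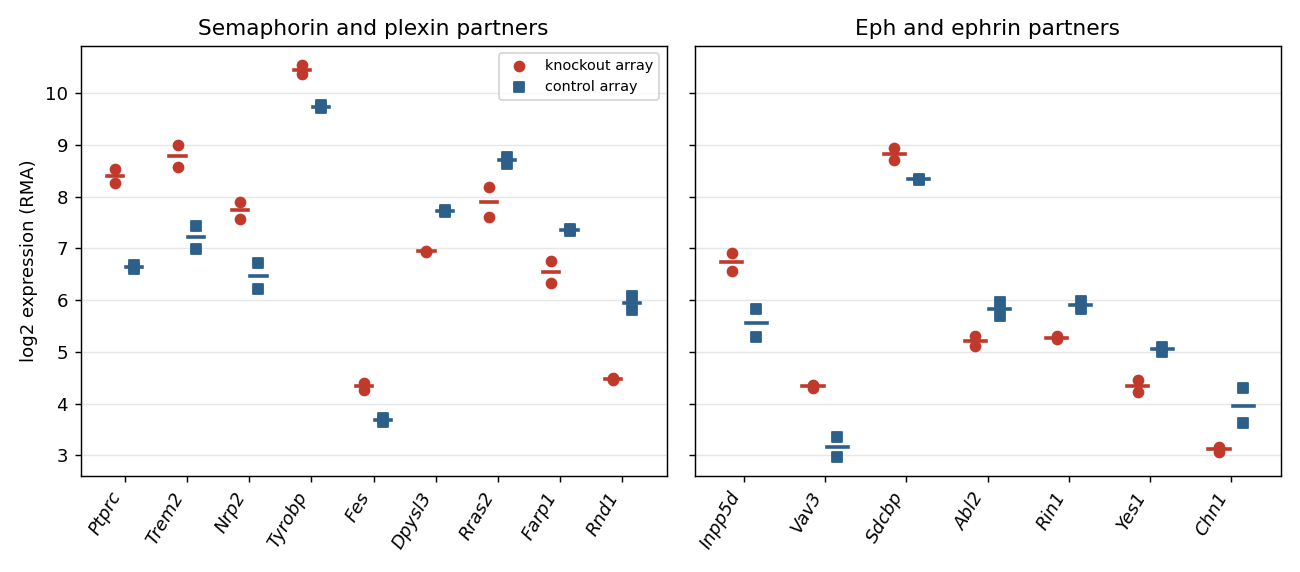
Log2 expression (y axis) of the partner and effector genes with an unadjusted p under 0.05 (x axis), left for semaphorins and plexins and right for Eph receptors and ephrins, in each knockout array (red circles) and control array (blue squares), with short lines at group means. Nrp2, Trem2, Vav3 and Inpp5d lie higher in both knockout arrays, and Rnd1, Dpysl3, Rin1 and Chn1 lower.

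Set beside each other as ligand and receptor, the members did not always share a direction. Efnb2 differed by -1.14 and its receptor Ephb4 by 0.04, with overlap. The other EphB receptor tested, Ephb3, differed by 0.30, and Epha4, which binds ephrins of both classes, by -0.88. Efna5 differed by -1.66, and its receptors Epha4 and Epha3 by -0.88 and -0.45, the second with overlap. The other EphA receptors tested were Epha2 at -0.84, and Epha7 at 0.05 and Epha10 at 0.09, both with overlap. Sema4d differed by 1.09 and its receptor Plxnb1, below the level tested, by -0.19 with overlap. Sema3e differed by -0.89 and its receptor Plxnd1 by 0.52, with overlap. Sema7a differed by 0.10, with overlap, and its receptor Plxnc1 by 1.50. Sema3f differed by -0.77 and its co-receptor Nrp2 by 1.27. No test of a difference between such partners was run, since each value comes from a different row.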

How the data were processed

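RNA of 4 cultures, 2 knockout and 2 control by their titles, was amplified from 10 ng and hybridised to Mouse Gene ST 2.1 arrays, per the labels' protocols. The authors deposited log2 expression values made with RMA, per the submitters' processing notes, and the range of the values fits that log base. Software version and genome build: not given in the sources used here. Of 41345 rows, 23521 had 1 gene symbol in the platform annotation. The 51 members came from 54 rows, and the row of highest mean was kept per gene. Genes with a mean under 3.02 were left out and the remaining 12550 fitted together (limma 3.58.1, R 4.3.3, lmFit and eBayes, no covariates, Benjamini-Hochberg over all of them). The difference is knockout minus control. The fit was tested on simulated data. Marker sums add back-transformed values. Promoter windows came from RefSeq, where 44 of 51 members had an entry. Named members were, per family and direction, up to 5 with the largest difference and no overlap, those at an unadjusted p under 0.05 and the row of highest mean. Of each partner list, up to 4 without overlap and those at an unadjusted p under 0.05 were named. Other genes are named for their role or to account for every member. Members, partner lists and marker lists were chosen with earlier results of these data known. Alternatives were a replicate block, other filters, a second quantile normalisation, median centring, row means, an eBayes trend, array weights and refits without 1 array, where a lone array took its spread from the other group. Plots were drawn with matplotlib 3.10.9.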

Additional observations from a re-analysis of the deposited data

How the results depend on the processing

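Limma called 0 of all genes tested, and 0 members, at an adjusted p under 0.05 under every alternative run, beside 1465 genes at an unadjusted p under 0.05 in the reported fit. Over these alternatives and the reported fit the adjusted p of Efnb2 ran from 0.102 to 0.462, of Efna5 from 0.0994 to 0.501, of Sema4d from 0.126 to 0.462 and of Plxnc1 from 0.203 to 0.433. Of 185 recomputed differences of the 16 named members, 180 kept their direction and 5 turned: Epha3 to 0.39 without control replicate 2 and 0.19 without knockout replicate 2, Plxna1 to -0.050 without knockout replicate 2, and Sema7a to -0.030 without control replicate 2 and -0.27 without knockout replicate 2. Without single arrays Epha3 ran from -1.295 to 0.39, Plxna1 from -0.050 to 0.32 and Sema7a from -0.27 to 0.48. The count of all genes at an unadjusted p under 0.05 ran from 975 (without control replicate 1) to 1535 when single arrays were left out. In the same refits the members at that level ran from 2 to 4 higher and from 5 to 8 lower. Members without overlap ran from 7 to 14 higher and from 13 to 15 lower, since a group of 1 array overlaps less often. With genes below the 75th percentile left out, 13 members were tested. Of these, 1 was higher and 2 were lower at that unadjusted level, 1 higher and 5 lower without overlap, and all genes at that level numbered 929. With no filter, 16 members were lower and 6 higher without overlap, out of 51. The share of all genes without overlap was not counted in the single-array refits or under the other filters. The counts of members without overlap in those settings are therefore no result about the members. The replicate block gave 9 lower members and 2 higher ones at that unadjusted level, beside 1527 of 12550 genes, and changed no call. With it the limma adjusted p was 0.175 for Epha4 and 0.215 for Sema3c, beside 0.481 and 0.47 in the reported fit. The numbers were not taken as pairs, since no label ties them to pairs. The replicate difference correlated with r = 0.0454 between groups across 12550 genes, which cannot tell whether the numbers mark pairs.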
